A study of Olea europaea with 24 samples.

Results

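The comparison set branches of 3 watered olive trees (Olea europaea) on 6 June against branches of the same 3 trees on 23 May. It used 6 of the 24 libraries of the study, those of trees 3, 9 and 11 on these days, chosen by the arm, tree and day that their labels give and paired by tree. On both days the watered trees carry the same description, an irrigation of 1.2 litres per day, so the labels separate the groups by date alone, 6 June lying 14 days after 23 May. The dried trees 4, 8 and 12 of the same days served to test whether the watered change differed from theirs, and all 24 libraries entered where the text says so. Per the labels, dried trees got 1 litre per week for 2 weeks and no water in the 2 weeks after, and the title names heat, drought and recovery without tying any of them to a day. Each tree gave 1 branch library per day, cultivar and tree age were not given in the sources used here, and no row of the table is named for a marker of branch tissue, so the tissue label was not checked.

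Woody branches store carbon as starch. ADP-glucose pyrophosphorylase makes the activated glucose that starch synthases and branching enzymes build into starch, in plastids that can import glucose 6-phosphate through a transporter. Beta-amylases release maltose from starch. Invertases and sucrose synthases split sucrose, the sugar that moves through the phloem, and hexokinases phosphorylate the free hexoses. The deposited table names 97 rows for genes of these steps, with short names such as agp2 or bamylase2, and the other 50566 rows carry gene model IDs for which no name was found. Rows of 1 family can share reads.

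The libraries differed widely between trees on each day. Their totals ran from 7374969 to 10663027 counts. A set of 29 unnamed rows, each with at least 1% of the counts in some library of the study, took 16.2%, 71.2% and 78.5% of the counts of trees 3, 9 and 11 on 6 June, against 25.7%, 83.1% and 64.0% on 23 May. The share was lower on 6 June in trees 3 and 9 and higher in tree 11, and the days overlapped. It averaged 55.3% ± 34.1 on 6 June and 57.6% ± 29.2 on 23 May (SD, n = 3), a mean paired difference of -2.28 percentage points (exact permutation p = 1.0, two-sided; 3 pairs allow no p under 0.25). The counts left for all other rows were 8938658, 2122576 and 2078228 on 6 June and 6604575, 1523738 and 2661855 on 23 May, so tree 3 was measured more deeply than trees 9 and 11 on both days.

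**Figure D1:**
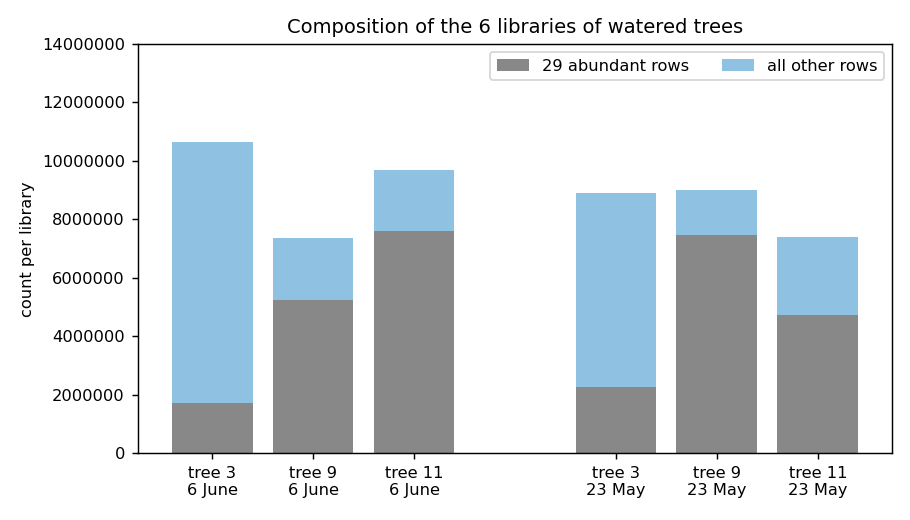
Counts per library (vertical axis) for the 3 watered trees on 6 June (left) and 23 May (right), split into 29 abundant rows (grey) and all other rows (blue). Tree 3 keeps most of its counts for the other rows on both days, with 16.2% on 6 June and 25.7% on 23 May in the abundant rows, and trees 9 and 11 have 64.0% to 83.1% there.

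Across the 22534 rows with enough counts to test, levels (log2 CPM, which scales counts to a common library size, with a prior count of 2) of trees 9 and 11 on 6 June correlated at r = 0.87, while tree 3 stood apart from them at 0.69 and 0.65. On 23 May tree 9 stood apart, at 0.36 with tree 3 and 0.56 with tree 11, and trees 3 and 11 correlated at 0.75. The days of 1 tree correlated at 0.70 in tree 3, 0.72 in tree 9 and 0.74 in tree 11. Different trees on different days reached higher values, 0.81 between tree 3 on 6 June and tree 11 on 23 May and 0.77 between tree 9 on 6 June and tree 11 on 23 May. These values describe the libraries and share depth and composition.

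No gene passed the test of a change shared by the 3 watered trees. EdgeR's quasi-likelihood test paired by tree called 0 of 22534 rows (0.0%), where a call is a p under 0.05 after Benjamini-Hochberg adjustment. The lowest adjusted p was 0.999878, and 588 rows (2.61%) had an unadjusted p below that level. The median log2 change over all rows was 0.06 (6 June minus 23 May) and the median standard error 0.75. The fit had 2 residual degrees of freedom, and 5.84 prior ones (median) borrowed from all rows. DESeq2 with the same block called 32 rows (0.142%), 19 higher and 13 lower on 6 June, none of them a named carbohydrate row. With each library that stood apart left out in turn, in fits without the block, edgeR again called 0, with 848 rows at an unadjusted p below 0.05 without tree 3 of 6 June and 2098 without tree 9 of 23 May.

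The trees, taken one by one, shared almost no pattern of change. Changes correlated across the 22534 rows at r = -0.02 between trees 3 and 9, 0.10 between trees 3 and 11 and -0.11 between trees 9 and 11. Among the 1482 rows with a mean of at least 5 log2 CPM these values were 0.07, 0.08 and -0.10. All 3 trees were higher on 6 June in 2764 rows (12.3%) and lower in 2656 rows (11.8%). A change of at least 1 on the log2 scale in every tree was found in 252 rows upward (1.12%) and 157 rows downward (0.697%).

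**Figure D2:**
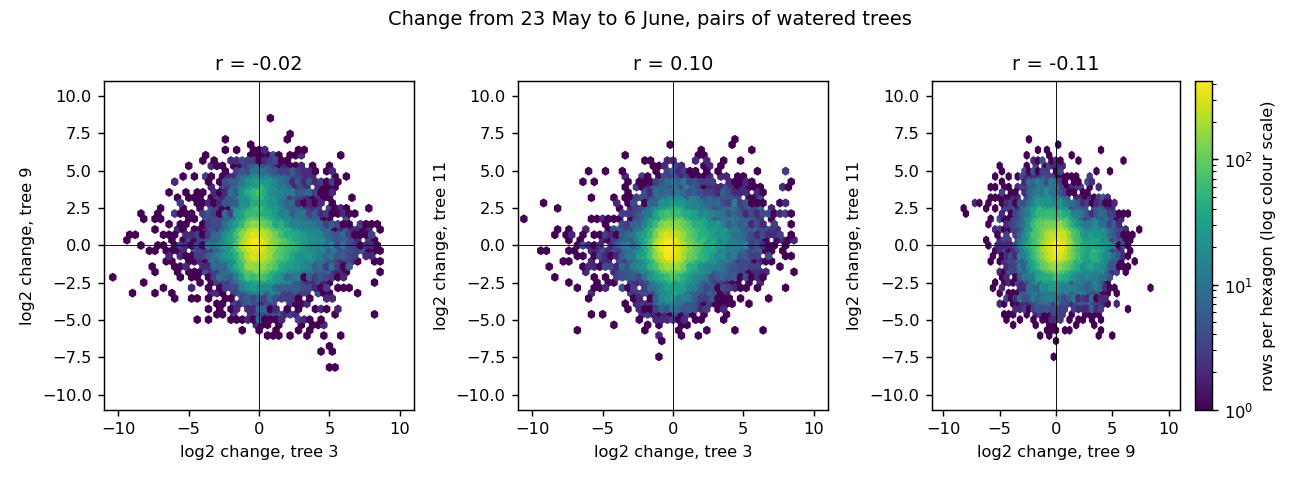
Log2 change (6 June minus 23 May) of 22534 rows in 1 watered tree against another, for trees 3 and 9, 3 and 11, and 9 and 11, with the number of rows per hexagon on a logarithmic colour scale. The clouds show little slope, with r = -0.02, 0.10 and -0.11.

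Of the 97 named carbohydrate rows 78 were tested, and none passed. By their fitted changes 39 were higher and 39 lower on 6 June, with a median of 0.00 on the log2 scale beside 0.06 over all rows. In all 3 trees 11 rows were higher and 9 were lower, together 25.6% of the named rows beside 24.1% of all rows, and the other 58 went both ways. No named row changed by at least 1 in every tree. Libraries of the days did not overlap in 4 rows that were higher on 6 June (5.13%, beside 5.2% of all rows) and in 7 that were lower (8.97%, beside 3.79%). At an unadjusted p below 0.05 there were 2 rows (2.56%), gpt2 and bamylase3. Every named row had an edgeR adjusted p of 0.999878, so the values that follow are levels and differences that did not pass the test, and in bulk tissue a smaller share of a cell type and less RNA per cell cannot be told apart.

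Among the roles, plastid transport had the highest median. It held glucose-phosphate transporter rows only, and the maltose exporter rows were counted under starch degradation. Its 4 tested rows, glucose-phosphate transporters by their name, all had positive fitted changes, with a median of 1.02 (1.58 in tree 3, 0.58 in tree 9 and 0.90 in tree 11). Gpt2 stood at 5.20, 2.60 and 2.31 log2 CPM in trees 3, 9 and 11 on 6 June, against -0.92, 1.83 and 0.23 on 23 May. All 3 libraries of 6 June lay above all 3 of 23 May, by the widest margin in tree 3, which had 1103 counts on 6 June and 7 on 23 May. The fitted log2 change was 3.04 ± 1.22 (SE, n = 3 trees; 95% interval 0.21 to 5.87), at an unadjusted edgeR p of 0.038, and 1.49 without tree 3. Gpt5 stood at 6.13, 5.26 and 5.07 log2 CPM on 6 June and at 5.07, 3.64 and 4.33 on 23 May, higher in each tree by 0.74 to 1.62, with overlap of days. Its fitted change was 1.14 ± 0.52 (SE). Gpt1, the family member with the highest level over the study, was lower in tree 3 by 0.83 and higher in trees 9 and 11 by 0.39 and 0.74.

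Starch synthesis rows went both ways within most enzymes. Their 21 tested rows had a median change of -0.06, with 1.12 in tree 3, 0.20 in tree 9 and -0.71 in tree 11, and 3 rows were higher and 3 lower in all trees. Agp2, an ADP-glucose pyrophosphorylase row, stood at 8.05, 4.72 and 4.46 log2 CPM on 6 June, against 2.39, 3.13 and 3.92 on 23 May. The days did not overlap, but tree 3 changed by 5.65 and tree 11 by 0.55. The fitted change was 2.40 ± 1.10 (SE; 95% interval -0.14 to 4.95), and 1.05 without tree 3 or 3.77 without tree 11. The other agp rows did not share this pattern: 5 of 6 tested agp rows were higher in tree 3, 3 in tree 9, and agp2 alone in tree 11.

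Starchsyn4, a starch synthase row, stood at 9.42, 7.42 and 7.26 log2 CPM on 6 June, against 6.32, 6.58 and 6.32 on 23 May. The trees were close to each other on 23 May and tree 3 led on 6 June, with no overlap of days and a fitted change of 1.60 ± 0.74 (SE; 95% interval -0.12 to 3.32), which was 0.89 without tree 3. Sbe3, a starch branching enzyme row, stood at 7.05, 6.28 and 6.68 log2 CPM on 6 June, against 5.34, 5.46 and 6.03 on 23 May. It was higher in each tree by 0.65 to 1.71, the days did not overlap, and the fitted change was 1.06 ± 0.56 (SE).

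Other starch synthase rows lay the opposite way. Starchsyn3 stood at 4.18, 4.90 and 4.18 log2 CPM on 6 June, against 5.86, 5.30 and 5.34 on 23 May, lower in each tree with no overlap of days, at -1.09 ± 0.54 (SE; 95% interval -2.34 to 0.15). Starchsyn6 was lower in each tree by 0.43 to 1.07, again without overlap, and starchsyn2 was lower by 0.03 to 0.84 with overlap. The 10 starchsyn rows as a family had 5 positive and 5 negative fitted changes, with a median of 0.00. Starchsyn7, picked after its values were seen, had 0 counts in tree 9 on 23 May and 86 on 6 June, while it was lower on 6 June in tree 3 by 1.44 and in tree 11 by 0.67.

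**Figure D3:**
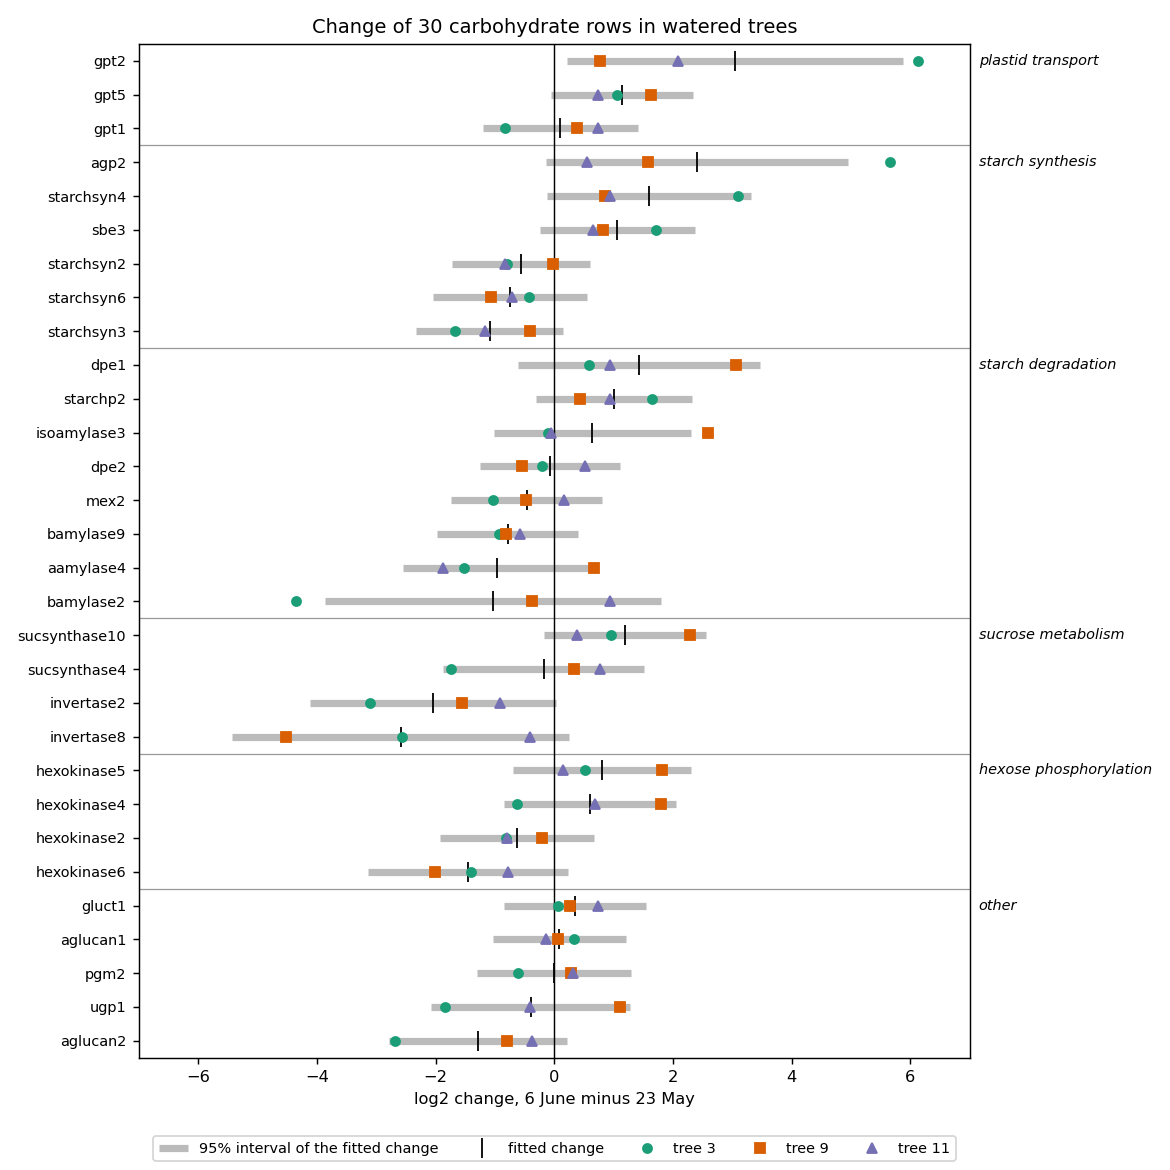
Log2 change (6 June minus 23 May, horizontal axis) of 30 carbohydrate rows grouped by role, with a symbol for each watered tree, a black tick for the change fitted by edgeR and a grey bar for its 95% interval. Gpt2 is the one row shown whose bar lies wholly on 1 side of 0 (0.21 to 5.87), and tree 3 lies at the far end for gpt2, agp2 and bamylase2.

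Starch degradation rows had a median near 0 and moved by tree. The 25 tested rows had a median fitted change of -0.08, with -0.11 in tree 3, 0.43 in tree 9 and -0.25 in tree 11; 3 were higher and 1 lower in all trees, and none separated the days. Bamylase2, a beta-amylase row, stood at 6.06, 7.54 and 9.64 log2 CPM on 6 June, against 10.42, 7.91 and 8.70 on 23 May. Tree 3 was the highest library on 23 May and the lowest on 6 June, tree 9 differed by -0.37 and tree 11 was higher by 0.94. The fitted change was -1.03 ± 1.22 (SE; 95% interval -3.87 to 1.80), and 0.27 without tree 3. Bamylase10, picked after its values were seen, followed the same course, with 5.63, 7.50 and 9.05 log2 CPM on 6 June and 10.30, 7.88 and 8.40 on 23 May.

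Bamylase3, also picked after its values were seen, stood at 1.85, 1.71 and 1.03 log2 CPM on 6 June, against 6.98, 1.39 and 3.83 on 23 May. It was lower in trees 3 and 11, by 5.13 and 2.80, and higher in tree 9 by 0.32, at -2.78 ± 1.15 (SE; 95% interval -5.43 to -0.13). The unadjusted p by edgeR was 0.042. Bamylase9 was lower in every tree, by 0.58 to 0.93, and bamylase6 was higher in every tree, by 0.06 to 0.47. Across the 11 tested beta-amylase rows 4 fitted changes were positive and 7 negative, with a median of -0.39.

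The 5 alpha-amylase rows, whose enzymes cut starch chains internally, were all 5 higher on 6 June in tree 9 and all 5 lower in tree 11. In tree 3, 3 were higher and 2 were lower. Tree 9 had only 0 to 28 counts in these rows on 23 May. Of all 78 tested named rows, 36 were higher on 6 June in tree 3, 49 in tree 9 and 32 in tree 11. Dpe1, a disproportionating enzyme that rearranges short glucan chains, was higher in each tree by 0.58 to 3.06, at 1.43 ± 0.88 (SE) and at 0.79 without tree 9. Starchp2, a starch phosphorylase, which releases glucose 1-phosphate, was higher in each tree by 0.43 to 1.64, at 1.01 ± 0.57 (SE). Dpe2, the maltose exporter row mex2 and the debranching enzyme row isoamylase3 had fitted changes of -0.08, -0.46 and 0.64 and differed in sign between trees. Aamylase3, mex3, starchsyn7 and hexokinase9 had 0 counts in tree 9 on 23 May, which among the 6 libraries had the fewest counts outside the abundant rows.

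Among the sucrose cleavage rows, only 2 of the 11 invertase rows had enough counts to test, and both were lower on 6 June in every tree without overlap of days. Invertase2 stood at -0.15, 0.79 and 0.51 log2 CPM on 6 June, against 2.96, 2.35 and 1.42 on 23 May. Its pooled counts were small, 37 on 6 June and 184 on 23 May, and its fitted change was -2.05 ± 0.90 (SE; 95% interval -4.12 to 0.03), and -1.33 without tree 3. Invertase8 had 39, 0 and 7 counts on 6 June, against 165, 12 and 16 on 23 May, at -2.59 ± 1.23 (SE; 95% interval -5.43 to 0.25) and at -1.67 without tree 9. Invertase11 was not tested, and 677 of its 689 counts on 23 May came from tree 3, with 67 counts in the 3 trees on 6 June.

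The 10 tested sucrose synthase rows had 7 positive and 3 negative fitted changes, with a median of 0.29. Sucsynthase10 stood at 5.88, 5.60 and 4.76 log2 CPM on 6 June, against 4.92, 3.32 and 4.37 on 23 May. It was higher in each tree by 0.39 to 2.28, with overlap of days, at 1.20 ± 0.59 (SE; 95% interval -0.17 to 2.56) and at 0.68 without tree 9. Sucsynthase4, the family member with the highest level over the study, was lower in tree 3 by 1.75 and higher in trees 9 and 11 by 0.33 and 0.78.

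Among 8 tested hexokinase rows 3 fitted changes were positive and 5 negative, with a median of -0.17. Hexokinase6 stood at 1.50, 0.05 and 1.72 log2 CPM on 6 June, against 2.90, 2.06 and 2.51 on 23 May, lower in each tree with no overlap of days, at -1.45 ± 0.73 (SE). Hexokinase2 was lower in each tree by 0.20 to 0.82, also without overlap, and hexokinase5 was higher in each by 0.14 to 1.82, at 0.80 and, without tree 9, at 0.35. Hexokinase4 was lower in tree 3 and higher in trees 9 and 11. Among the other named rows, aglucan2 was lower in each tree by 0.38 to 2.68 without overlap, at -1.28 and, without tree 3, at -0.60, and gluct1 was higher in each by 0.06 to 0.74. Pgm2, a phosphoglucomutase row, ugp1, a UDP-glucose pyrophosphorylase row, and aglucan1 differed in sign between trees, at -0.01, -0.40 and 0.09.

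Over all 4 days, the mean level of watered trees was lowest on 23 May in all 4 tested glucose-phosphate transporter rows. For gpt1 the margin was far within the spread, at 5.48 ± 0.52 log2 CPM on 23 May and 5.50 ± 0.23 on 29 July (SD). Tallies of the lowest and highest day were not made over all rows. Of the 21 starch synthesis rows 4 were lowest on 23 May, 12 on 7 May, 4 on 6 June and 1 on 29 July. With tree 9 left out, whose 7 May library stands apart from its group, 3 of the 4 transport rows and 7 of the 21 synthesis rows were lowest on 23 May. Their highest day was 29 July in 16 of the 21 synthesis rows and 23 May in 4, or in 10 and 9 without tree 9. With all 24 libraries scaled together, gpt2 in watered trees averaged 4.22 ± 0.68 log2 CPM on 7 May, 0.54 ± 1.35 on 23 May, 3.54 ± 1.58 on 6 June and 7.14 ± 0.30 on 29 July (SD, n = 3). In each of the 3 trees its lowest day was 23 May and its highest 29 July. Agp2 averaged 6.34 ± 2.88, 3.33 ± 0.74, 5.92 ± 1.99 and 8.99 ± 0.27 log2 CPM over these days, and starchsyn4 8.15 ± 2.61, 6.60 ± 0.10, 8.21 ± 1.19 and 9.86 ± 0.03. Both were highest on 29 July in every tree. Their lowest day was 23 May in trees 3 and 11, whereas in tree 9 it was 7 May. Starchsyn3 lay the opposite way, with its highest mean on 23 May, at 4.33 ± 0.24, 5.69 ± 0.36, 4.59 ± 0.44 and 5.09 ± 0.22 log2 CPM on the 4 days.

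Bamylase2 ran the other way at the end of the series, at 8.92 ± 3.03, 9.20 ± 1.34, 7.92 ± 1.81 and 5.90 ± 0.27 log2 CPM on the 4 days, with its lowest value on 29 July in each tree. In gpt2, agp2, starchsyn4 and bamylase2 the spread between watered trees was wide on 6 June and narrow on 29 July. Their SDs were 1.19 to 1.99 on 6 June and 0.03 to 0.30 on 29 July. Starchsyn3 differed less between these days, with SDs of 0.44 and 0.22. On 6 June tree 3 was nearest to its own later level for agp2 (8.21 on 6 June, 9.22 on 29 July) and bamylase2 (6.22 and 5.96), and trees 9 and 11 were farther from theirs (agp2 4.91 and 4.63 on 6 June, 8.68 and 9.05 on 29 July). These levels are a description and were not tested.

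**Figure D4:**
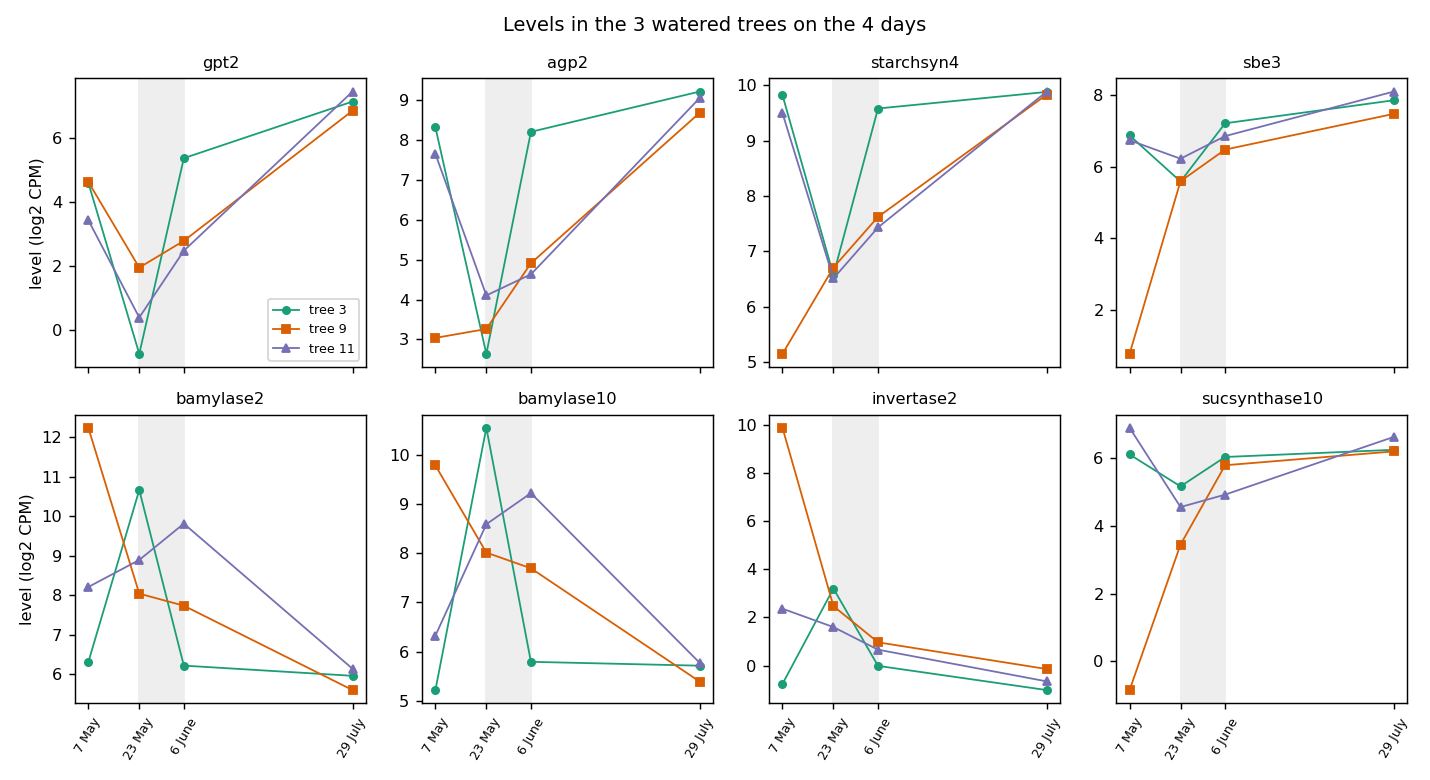
Levels (log2 CPM, 24 libraries scaled together) of 8 carbohydrate rows in the 3 watered trees on the 4 sampling days, spaced by date, with 23 May to 6 June shaded. Gpt2 averages 0.54 on 23 May and 3.54 on 6 June, bamylase2 and bamylase10 follow different courses in tree 3 and in tree 11 over the shaded days, and the trees come together on 29 July.

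Whether the watered change differed from the change in dried trees over the same days was tested in 12 libraries, as watered change minus dried change. Across 24652 rows the changes of the arms correlated at r = 0.01, and edgeR, paired by tree, called 4 rows (0.0162%), with 1124 (4.56%) at an unadjusted p below 0.05. Oeu049702.1 had 101, 37 and 44 counts in watered trees 3, 9 and 11 and 380, 2993 and 1396 in dried trees 4, 8 and 12 on 6 June. On 23 May it had 85, 30 and 29 counts in the watered and 15, 5 and 5 in the dried trees. Its log2 change was 0.13 ± 0.55 in watered and 7.37 ± 0.71 in dried trees, a difference of -7.25 ± 0.86 (SE, adjusted p = 0.0366). The count of 4 varied with the trees used: it was 0 without the tree as a block and 0 without tree 3, 8 or 9, and it was 1 without tree 12, 11 without tree 4 and 20 without tree 11, while DESeq2 called 202.

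Oeu035696.1, also called (adjusted p = 0.0423), had 0 counts in the 3 watered trees on 6 June, against 280, 0 and 2 on 23 May. Dried trees 4, 8 and 12 had 215, 1475 and 602 counts on 6 June and 139, 77 and 57 on 23 May. In the watered arm the earlier counts came almost wholly from tree 3.

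With all 12 libraries and the filter on low counts, no carbohydrate row passed edgeR's test of the difference. Of the 81 tested 56 had a positive difference and 25 a negative one, beside 12591 and 12061 of all 24652 rows. The median was 0.50 beside 0.04 over all rows, and 7 had an unadjusted edgeR p below 0.05. Some dried libraries lay near the floor. Of the 78 named rows tested in watered trees, 16 had 0 counts in dried tree 8 on 23 May. In dried tree 4 on 6 June 7 had 0 counts. The part of these zeros in the split was not tested. The lowest adjusted p was that of invertase2, 0.334, where the arms lay in opposite directions, at -2.09 ± 0.79 in watered and 3.79 ± 0.80 in dried trees, a difference of -5.88 ± 1.12 (SE). On the scale of these 12 libraries invertase2 stood at -0.53, 0.34 and 0.07 log2 CPM in watered trees and at 6.21, 8.35 and 5.98 in dried trees on 6 June. On 23 May it stood at 2.48, 1.84 and 0.99 in watered and at 4.01, 4.79 and 0.22 in dried trees, so the arms overlapped on that day and not on 6 June.

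Invertase8 gave -2.45 ± 0.84 in watered and 2.55 ± 0.73 in dried trees, a difference of -5.00 ± 1.11 (SE, edgeR adjusted p = 0.448). Invertase1 had 8 pooled counts in watered and 1158 in dried trees on 6 June, against 12 in watered and 2 in dried trees on 23 May (edgeR adjusted p of the difference 0.440). Its dried counts on 6 June came mostly from tree 8, which stood at 7.02 log2 CPM, against 3.05 in tree 4 and 2.32 in tree 12. DESeq2 called all 3, at adjusted p of 7.25e-06 for invertase2, 0.000948 for invertase8 and 0.000374 for invertase1. EdgeR with no filter beyond 1 count called the same 3, at adjusted p of 5.5e-05, 0.000805 and 8.4e-06 for invertase2, invertase8 and invertase1. With the filter on low counts and tree 11 left out, edgeR called invertase1 (adjusted p = 0.0253). These rows are known from the comparison of the arms on 6 June, so their difference is not independent evidence of it.

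Sucsynthase10 and hexokinase9 differed the other way, without passing. Sucsynthase10 changed by 1.20 ± 0.59 in watered and -1.90 ± 0.63 in dried trees, a difference of 3.10 ± 0.87 (SE, edgeR adjusted p = 0.631). Hexokinase9 had 179 pooled counts in watered and 0 in dried trees on 6 June, against 111 in watered and 46 in dried trees on 23 May (edgeR adjusted p = 0.740). Of the 4 rows that were higher on 6 June without overlap in watered trees, none passed the test of the difference (adjusted p = 1.0 each by edgeR): it was 1.81 ± 2.60 for gpt2, -0.31 ± 1.38 for agp2, 1.27 ± 0.87 for starchsyn4 and 1.27 ± 0.70 for sbe3 (log2, SE). Gpt2 had only 7 pooled counts in dried trees on 6 June and 5 on 23 May, so its dried change lies near the floor. Of the 7 that were lower without overlap, the other 5 beside invertase2 and invertase8 were lower in both arms, also at an adjusted p of 1.0. Agp2 was higher on 6 June in both arms, by 2.41 ± 1.00 in watered and 2.72 ± 1.04 in dried trees.

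**Figure D5:**
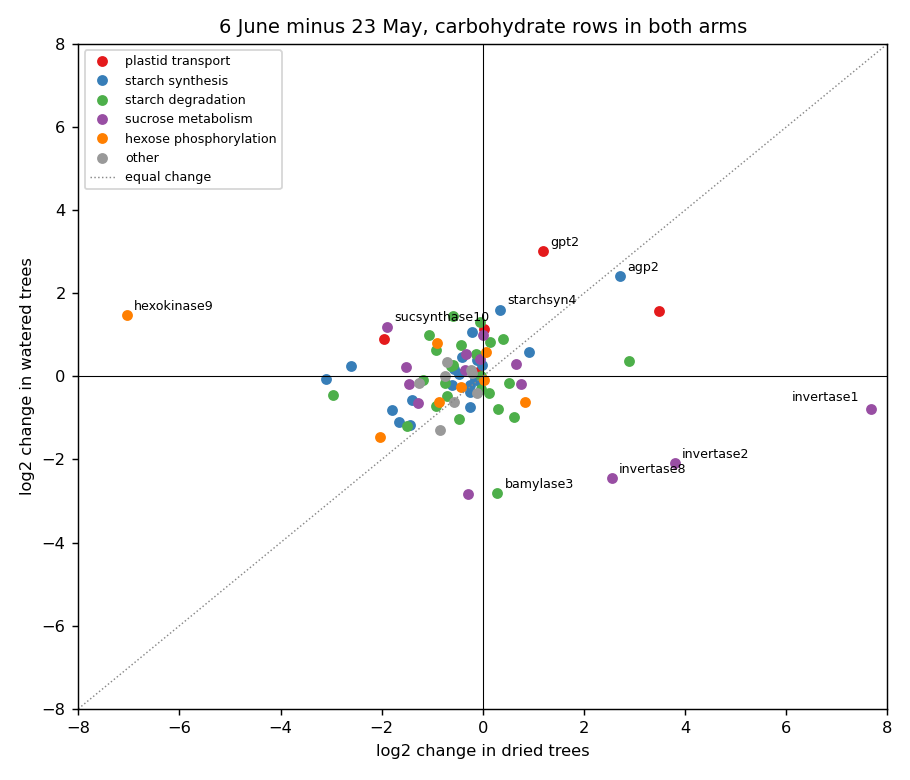
Log2 change (6 June minus 23 May) of 81 carbohydrate rows in watered trees (vertical axis) against the change in dried trees (horizontal axis), coloured by role, with the dotted line marking equal change. Invertase2 and invertase8 lie in the lower right, lower in watered and higher in dried trees, and agp2 lies near the line. Hexokinase9 and invertase1 have 0 to 2 pooled counts in a dried group, so their place along the horizontal axis depends on the prior count. Gpt2 is also near the floor, with 7 pooled counts in dried trees on 6 June and 5 on 23 May.

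Over all 22534 rows, 12.3% were higher and 11.8% lower in all 3 watered trees. Of the 1482 rows with a mean of at least 5 log2 CPM, 289 with gene model IDs were higher in all 3. A further 78 with such IDs were lower in all 3, a split that was not tested. Among the 289, Oeu039204.1 had the largest fitted change upward. It stood at 8.61, 8.53 and 9.03 log2 CPM in trees 3, 9 and 11 on 6 June. On 23 May it stood at 0.73, 8.32 and 6.19. The trees were alike on 6 June, and tree 3 was far below the others on 23 May, for a fitted change of 3.25 ± 1.61 (SE) and 1.52 without tree 3 or 5.40 without tree 9. Oeu011783.1 stood at 10.55, 9.38 and 8.84 log2 CPM on 6 June, against 4.48, 7.64 and 6.47 on 23 May, without overlap of days, at 3.22 ± 1.10 (SE; 95% interval 0.68 to 5.76) and at 2.05 without tree 3.

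Among the 78 rows with a mean of at least 5 log2 CPM that were lower in all 3 trees, Oeu002322.1 had the largest change. It stood at 3.37, 3.17 and 3.91 log2 CPM on 6 June, against 9.04, 4.61 and 7.04 on 23 May, again without overlap. Its fitted change was -3.41 ± 0.98 (SE, 95% interval -5.66 to -1.15). Oeu052872.1 followed at -1.84 ± 0.96 (SE), with overlap, and was at -0.73 without tree 3. None of these 4 rows passed edgeR (adjusted p = 0.999878 each), and DESeq2 called Oeu011783.1 (adjusted p = 0.0268) and Oeu002322.1 (0.00872).

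The authors' deposited table of comparisons holds 1 that sets control 1 against control 2, without days. Its fold changes followed a DESeq2 fit of 6 June against 23 May with all 24 libraries and a term for each tree (Spearman's rho of -0.999 across rows, r = -0.91), so its sign runs 23 May minus 6 June. The authors' deposited table lists 122 of 31870 rows (0.383%) with an adjusted p under 0.05, which with the sign turned are 52 higher and 70 lower on 6 June. It lists no named carbohydrate row among them, and the lowest named value in the authors' deposited table is an adjusted p of 0.107 for starchsyn3. The DESeq2 fit named above called 123 rows, 107 of them shared with the authors' deposited table.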

How the data were processed

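Branch RNA was measured by poly-A sequencing, per the labels' protocols. The submitters' processing notes name cutadapt, Bowtie2, RSEM, DESeq2 and limma; the sources used here do not give versions, the genome build or the role of each tool. The deposited table holds RSEM estimated counts (expected counts), of which 31.2% were not whole; they were rounded. The authors also deposited signal values, which are counts scaled by 1 factor per library, and a table of their comparisons with log2 fold changes and adjusted p-values.

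The test was edgeR's quasi-likelihood F test (edgeR 4.0.16, R 4.3.3), with TMM scaling, filterByExpr by day and the tree as a block, over 22534 rows in 6 libraries, and 24652 rows in 12 for the difference between arms. The standard error of a log2 change is its size divided by the root of F. TMM assumes that most rows do not change, so levels are relative. With 3 trees per group, the spread between these trees gave each row 2 residual degrees of freedom. The edgeR fit draws each row's spread towards that of all rows, with a median of 5.84 prior degrees of freedom. Its p-values, standard errors and intervals rest on both, not on the 3 trees alone. Alternatives used DESeq2 1.42.0 and limma 3.58.1 (on log2(value + 1) of the scaled values). The code was also run on simulated counts with equal library sizes, no differences between trees and less spread than these data. That run checks the code and cannot say how well the tests work on these libraries.

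The same trees were sampled on both days, so numbers pair libraries; deviations from group means correlated across rows at 0.38 in tree 3, 0.33 in tree 9 and -0.18 in tree 11. No 2 libraries were identical. The RefSeq gene table matched 0 of 50663 row names.

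Named carbohydrate rows, 30 in all, were those called and each family's most abundant member. Up to 10 per direction with the largest change were added that averaged at least 1 log2 CPM and moved alike in all 3 trees. IDs of the watered change were the 2 per direction with the largest change among rows that averaged at least 5 log2 CPM and moved alike in all 3 trees. IDs of the difference between arms were the 2 called rows with the largest difference that averaged at least 1 log2 CPM. Every other row in the text was picked after its values were seen. The comparison, lists and rules were chosen with earlier results of these data known.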

Additional observations from a re-analysis of the deposited data

Results flagged for a closer look

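Watered and dried trees changed differently between 23 May and 6 June in 4 rows, by edgeR's test of watered change minus dried change, and these are listed for that reason. Oeu049702.1 was 1 of them, at an edgeR adjusted p of 0.0366, with a log2 change of 0.13 ± 0.55 in watered trees and 7.37 ± 0.71 in dried trees (SE). Oeu035696.1 was another, at an edgeR adjusted p of 0.0423. It had 0 pooled counts in watered and 2292 in dried trees on 6 June, against 282 in watered and 273 in dried trees on 23 May. Of those 282 watered counts, 280 came from tree 3. No row was called without the tree as a block, nor without tree 3, 8 or 9. The share of counts in the 29 abundant rows was lower on 6 June in watered trees 3 and 9 and higher in tree 11, and it was higher in dried tree 4 and lower in trees 8 and 12. The part of library composition in these rows was not tested.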

How the results depend on the processing

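The count of 0 for the watered change was also 0 in edgeR with no replicate block (652 rows at an unadjusted p below 0.05), in the other edgeR and limma fits with a filter, and without each tree (376 to 1134). DESeq2 called 32, edgeR with no filter beyond 1 count 47 (27 of them in the main test) and DESeq2 on all 24 libraries, added after seeing the data, 123. The 4 rows of the difference between arms became 0 with no replicate block, 0 with all 24 libraries, 202 with DESeq2, 2 with DESeq2's size factors, 187 with no filter, 1 with limma on the authors' scaled values, and 0 to 20 when a tree was left out; the cause was not tested. Rows that moved alike in all trees numbered 409 at 1 or more on the log2 scale, 1624 at 0.5, 41 at 2, and 1767 to 2122 with 2 of the 3 trees. The starch synthesis median of -0.06 ran from -0.35 to 0.91 when a tree was left out.

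Of 34 named rows 26 kept their direction in all 16 alternatives. Pgm2 was 0.010 with limma. When a tree was left out, log2 changes ran from -0.055 to 0.29 for aglucan1, -2.28 to 0.27 for bamylase2, -0.30 to 0.15 for dpe2, -0.14 to 0.56 for gpt1, -0.082 to 1.17 for isoamylase3, -0.15 to 0.29 for pgm2, -0.63 to 0.55 for sucsynthase4 and -1.13 to 0.33 for ugp1. Without tree 3 of 6 June and with no replicate block, added after seeing the data, aglucan1 was at -0.18, isoamylase3 at -0.19 and sucsynthase4 at 0.059. Without tree 9 of 23 May, likewise, gpt1 was at -0.078 and isoamylase3 at -0.36. The share of abundant rows kept its difference within the spread between trees.

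Depth outside the abundant rows went down to 1523738 counts. Of the named rows 19 were not tested, 9 of them invertases. Hexokinase7, invertase6, invertase7, sbe2 and sbe5 had 0 counts in every library of the comparison. Invertase11 had 677 counts in a single library, and bamylase4 had 51 in a single library. The part of depth in the untested rows was not tested.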
